A study of Drosophila melanogaster with 2 samples.

Results

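Chromatin bound by the protein of CG43347 in Drosophila melanogaster embryos was described at 759 positions inside introns, each more than 500 bp and at most 2000 bp from a transcription start site (TSS). They were selected from a list of 5038 chromatin immunoprecipitation (ChIP-seq) peaks by the summit, the base that the deposited file gives as the highest point of the peak. A summit was kept if it lay inside an annotated gene, in no exon, and in that range of distance to the nearest TSS of any gene. The 759 summits made up 15.1% of the list (95% Wilson interval 14.1% to 16.1%) and 44.5% of its 1707 intronic summits over 500 bp from a TSS. Among the other summits, 2626 lay within 500 bp of a TSS, 451 in introns over 2000 and up to 5000 bp away, 497 in introns over 5000 bp away, and 705 in exons or between genes.

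The embryos were whole and 10 to 24 h old, and came from a transgenic line whose CG43347 protein, labelled with the older gene name CG9817, carries green fluorescent protein (GFP) at its C-terminus. Both samples, biological replicates numbered 1 and 3, were of this 1 group and were precipitated with an antibody against GFP. The samples included no group lacking the tagged protein, so no conditions were compared. The listed peaks passed a threshold on the irreproducible discovery rate (IDR), a measure of agreement between replicate rankings. Whole embryos mix all cell types, so the cells behind a peak are unknown, and the depth of the libraries is unknown from peak lists. P-values given below count peaks, which are not replicates.

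Introns are removed from the transcript, but their DNA often holds enhancers, silencers and alternative promoters, from which a gene can start transcripts that differ in their first exon. In flies, long first introns are a common place for such elements, and a gene can also lie whole inside an intron of another gene. A summit in an intron can therefore sit downstream of the start of its host gene, upstream of another start of the same gene, or beside a nested gene.

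The sequences under the strongest of these summits show their base composition, which the motif counts described further on depend on. The summit with the 50 bases on either side is given for 8 of the 10 strongest members, 5′ to 3′ from the RefSeq dm6 (release 6) genome, each named by its host gene. Capitals mark the letters TATAAA, the TATA box motif of core promoters, read on either strand.
CG11050, chr2L:6612664-6612764, + strand: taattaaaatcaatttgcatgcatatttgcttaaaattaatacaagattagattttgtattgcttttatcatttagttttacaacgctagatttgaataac
ush, chr2L:481048-481148, + strand: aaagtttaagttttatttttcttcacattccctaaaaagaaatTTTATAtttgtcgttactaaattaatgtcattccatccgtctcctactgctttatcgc
CG9663, chr2L:3302135-3302235, + strand: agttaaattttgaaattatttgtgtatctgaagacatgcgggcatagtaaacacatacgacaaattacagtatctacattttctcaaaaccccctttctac
CG32772, chrX:4910313-4910413, + strand: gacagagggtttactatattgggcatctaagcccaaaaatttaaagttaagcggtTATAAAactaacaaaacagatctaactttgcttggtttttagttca
Trl, chr3L:14759449-14759549, + strand: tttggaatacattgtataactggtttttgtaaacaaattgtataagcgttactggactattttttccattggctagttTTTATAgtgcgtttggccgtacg
Lk6, chr3R:11760996-11761096, + strand: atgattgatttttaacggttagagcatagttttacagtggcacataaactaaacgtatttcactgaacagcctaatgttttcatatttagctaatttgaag
norpA, chrX:4324935-4325035, + strand: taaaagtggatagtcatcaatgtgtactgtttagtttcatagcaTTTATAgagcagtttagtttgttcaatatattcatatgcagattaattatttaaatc
CG9837, chr3R:8811619-8811719, + strand: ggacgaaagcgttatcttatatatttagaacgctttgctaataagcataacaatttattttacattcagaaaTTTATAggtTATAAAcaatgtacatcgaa
Their GC content ran from 21.8% to 33.7%, and 5 of the 8 windows held the TATA box letters. This count covers only 8 windows, and no share in windows of this length over all members is given here. In wider windows, with 100 bp on either side of the summit, the letters did not become more frequent with signal. Over 4 equal groups of members, from strongest to weakest signal, 38.9%, 41.1%, 36.5% and 41.1% of these wider windows held them. All 8 printed windows come from introns, and the letters are a description of sequence, not a measured start site.

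A group of overlapping words of 7 bases, which spell out stretches around ACAGT and AGTGCAC, was more frequent near the summits than in neighbouring sequence of similar GC content. Of the strong members that held such a word within 100 bp of the summit, 8 are shown with 31 bases around a match. Each is printed 5′ to 3′ on the strand named, in dm6, so that the words read in the same direction, and capitals mark the words of the group.
CG11050, chr2L:6612766-6612796, + strand: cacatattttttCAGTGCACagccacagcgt
Trl, chr3L:14759387-14759417, + strand: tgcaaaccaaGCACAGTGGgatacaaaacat
Lk6, chr3R:11761017-11761047, + strand: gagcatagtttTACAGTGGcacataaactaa
norpA, chrX:4325052-4325082, - strand: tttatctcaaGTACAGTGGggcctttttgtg
CHES-1-like, chrX:7706890-7706920, + strand: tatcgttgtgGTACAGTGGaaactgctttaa
for, chr2L:3655712-3655742, + strand: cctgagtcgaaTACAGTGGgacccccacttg
Csk, chr3R:11649698-11649728, - strand: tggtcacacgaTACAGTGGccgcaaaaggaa
NFAT, chrX:13640584-13640614, - strand: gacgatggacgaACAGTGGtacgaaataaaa
Of these hosts, 7 carried the letters ACAGTGG, with TACAGTGG or GCACAGTGG in some, while the CG11050 site read CAGTGCAC. The CG11050 summit lay 66 bp from the next exon, so the capitals printed for it cross from the intron into that exon. The counts behind this group are given with the sequence results.

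The strongest member lay in CG11050. Its deposited signal, whose scale is not stated and which serves only to rank peaks within a list, was 5795. It ranked 3 of the 5038 peaks, and ranked 4 in replicate 1 and 5 in replicate 3. The summit was 1027 bp downstream of the nearest CG11050 TSS and 66 bp from the next exon. The second strongest, with signal 4994 and rank 6, lay in an intron of ush, which encodes a zinc finger cofactor of GATA factors. It was nearest to the TSS of cbt, which encodes another zinc finger transcription factor, 1410 bp upstream of that start, and it ranked 22 in replicate 1 and 3 in replicate 3.

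The next members lay in CG9663, a gene of the ABC transporter family (signal 4177), in CG32772 (3957), and in Trl (3871), which encodes the GAGA factor. These 3 ranked 10, 13 and 15 in the list. The Trl summit was 1537 bp upstream of an alternative start of Trl itself. Lk6, which encodes a kinase that phosphorylates the cap-binding protein eIF4E, held a summit of signal 3676, and HmgZ, which encodes an HMG-box chromatin protein, one of 3631. Both lay upstream of an alternative start of their host, by 967 and 608 bp.

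The other 8 of the 15 strongest members ranked between 29 and 79. Their hosts included norpA, the phospholipase C of photoreceptors (signal 2794), and Adf1, a transcription factor gene (2510). They also included CHES-1-like, a forkhead factor gene (2134), chif, a gene for an activator of the replication kinase Cdc7 (2082), and wde, a gene for a partner of a histone H3 lysine 9 methyltransferase (2046). CG9837 (2347), CG3726 (2192) and CG31612 (1896) completed the set. All 15 had a counterpart in both replicates, ranked within the strongest 100 there. Of the 15, 8 lay downstream of a start of the host, 5 upstream of an alternative start of the host, and 2 nearest to a start of another gene.

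**Figure D1:**
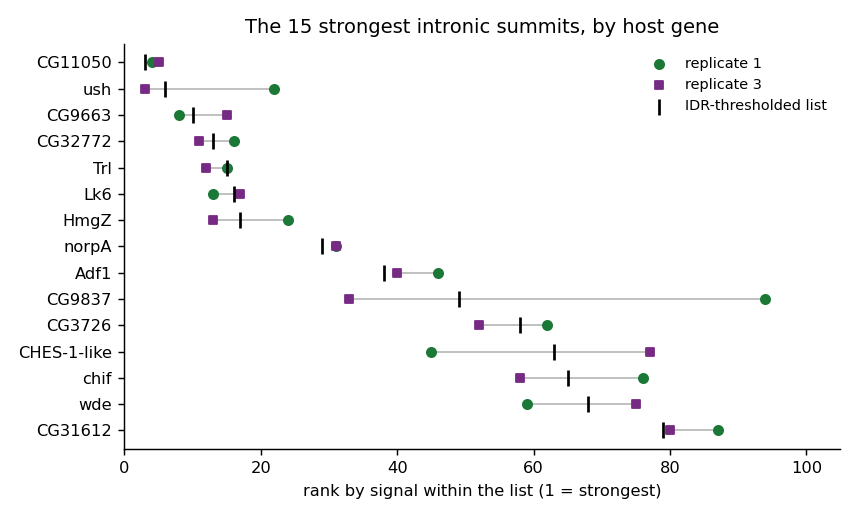
Ranks of the 15 strongest intronic summits by host gene; the x axis is the rank by signal within each list (1 is the strongest), circles are replicate 1, squares replicate 3 and vertical ticks the IDR-thresholded list. All points lie within rank 100, and the widest gaps are at CG9837 (94 and 33) and CHES-1-like (45 and 77).

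The range of distances that chose the members covers 11.4 Mb of intron, 8.54% of the 6 chromosome arms, here called eligible intron. It held 66.4 summits per Mb (95% Poisson interval 61.8 to 71.3, counting error only). Introns over 2000 and up to 5000 bp from a TSS held 34.4 per Mb (31.3 to 37.7), and those farther away 17.6 (16.1 to 19.2), so the 3 intervals did not overlap. The list as a whole had 37.6 per Mb. By arm, the density was 57.5 on 2L, 58.1 on 3L, 64.3 on 2R, 75.1 on 3R and 78.6 on X. The intervals of 2L (47.7 to 68.8) and X (67.3 to 91.2) overlapped slightly, and arm 4 held 1 member.

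Within the range, density was highest nearest the start. It was 92.3 per Mb between 500 and 750 bp (80.2 to 106), 74.0 between 750 and 1000 bp, and 54.3 between 1750 and 2000 bp (43.3 to 67.1). The median distance was 1018 bp. Just inside the lower limit were summits in CG31612 and Mtp, both 502 bp from a start, with signals of 1896 and 311. Just outside it were intronic summits in tapas at 498 bp and mwh at 497 bp, with signals of 218 and 227. At the upper limit, a summit in lncRNA:CR44320 at 1998 bp and one in CG9171 at 1990 bp (390 and 401) were inside, and NFAT at 2001 bp and Hnf4 at 2004 bp (626 and 165) were outside.

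The highest density near the start was that of summits upstream of an alternative start of a gene that held them. Such summits numbered 200, or 26.4% of members (23.3% to 29.6%), in 16.6% of the eligible intron. Their density was 199 per Mb between 500 and 750 bp (160 to 245) and 83.1 per Mb between 750 and 1000 bp (56.5 to 118). Summits downstream of a start of the host were the most numerous class, 439 or 57.8% (54.3% to 61.3%), in 54.5% of the eligible intron. Their density was 75.6 per Mb in the nearest 250 bp and 64.0 per Mb in the farthest, with overlapping intervals.

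**Figure D2:**
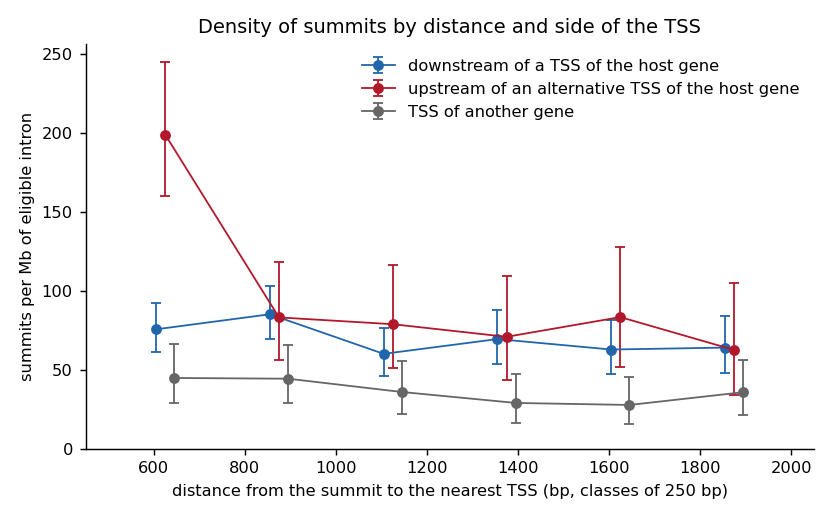
Summits per Mb of eligible intron (y axis) against distance to the nearest TSS in classes of 250 bp (x axis), by side of the TSS; points are shifted sideways for visibility and bars are 95% Poisson intervals. The class upstream of an alternative start of the host stands at 199 per Mb nearest the start, above the 75.6 and 44.8 of the other classes there.

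The remaining 120 members (15.8%, 13.4% to 18.6%) were nearest to a start of a gene other than the host. They were the sparsest, at 36.4 per Mb against 70.4 downstream and 106 upstream of a start of the host. For 98 of these summits the neighbouring gene lay wholly within a host gene, and for 52 it was noncoding, in 41 cases an ncRNA. Some summits shared a neighbour. The summit was upstream of that gene in 86 of the 120. Their median signal was 209, against 244 downstream and 256 upstream of a start of the host.

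Most members lay in first introns. A first intron of some transcript held 620 of 759 (81.7%, 78.8% to 84.3%), and first introns made up 64.5% of the eligible intron. By the lowest order in the host gene, 97 members lay in a second intron and 45 in a later one. The host was protein-coding for 749 members. The exon-free stretch around a summit had a median length of 3059 bp, against 2742 bp over all eligible bases. Of the summits, 461 (60.7%, 57.2% to 64.1%) were nearer its 5′ end than its 3′ end. This share has no counterpart over eligible bases. The distance rule itself bears on it, as 57.8% of members lay downstream of a start of the host.

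By signal, the members stood near the middle of the list. Their median signal was 240 (range 129 to 5795), at a median rank of 2654, against 2157.5 for summits within 500 bp of a TSS, 2772 for introns over 2000 and up to 5000 bp away and 3169 for introns farther away. The strongest 500 peaks of the list held 75 members, 9.88% of them (7.96% to 12.2%), beside 13.2% of the TSS summits, 5.32% of introns up to 5000 bp away and 3.22% of the farthest. When the members were split by signal into 4 equal groups, 98.4% of peaks in the weakest group and 2.63% in the strongest were exactly 350 bp wide.

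Both replicates contained most members. The IDR threshold selects for agreement between replicate rankings, so a high share follows in part from that selection. A peak overlapping reciprocally by at least 50% was found in both full replicate lists of 30000 peaks for 609 members (80.2%, 77.3% to 82.9%). It was found in replicate 1 alone for 39, in replicate 3 alone for 78 and in neither for 33. Such a peak is here called a counterpart. At an overlap of at least 1 bp, 98.4% of members had a peak in both lists. A missing counterpart therefore need not mean that no peak was there. The share was 0.42 percentage points above that of TSS summits (79.8%), 0.64 above that of introns up to 5000 bp away (79.6%) and 2.57 above that of introns farther away (77.7%). None of these differences passed the threshold (two-sided Fisher's exact test, adjusted p = 0.837 for each, over 3 comparisons).

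The replicates ranked the members differently. Of the 609, 422 (69.3%, 65.5% to 72.8%) ranked higher in replicate 3 than in replicate 1, while of 2096 TSS summits found in both, 37.8% did. Introns farther from a TSS resembled the members, with 71.3% up to 5000 bp away and 68.4% beyond. Accordingly, 635 members (83.7%) had a counterpart among the strongest 5038 peaks of replicate 3 and 488 (64.3%) among those of replicate 1, and 53.2% had one in both, beside 63.4% of TSS summits (adjusted p = 1.77e-06, Fisher's exact test over 3 comparisons). Across the 609 members, which are not independent replicates, the deposited signals of the replicates had a Spearman correlation of 0.682. On the log2 scale Pearson r was 0.814. The selection by IDR bears on both values. In 2 peak intervals, 1 in CG9663 and 1 in CG1677, a pair of members shared the interval and its counterpart.

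**Figure D3:**
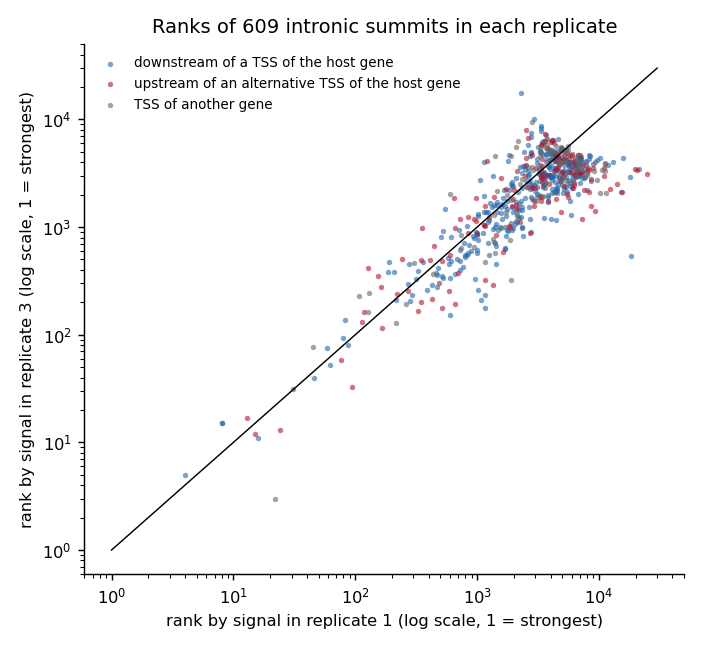
Rank by signal in replicate 1 (x axis) and replicate 3 (y axis) of the 609 intronic summits found in both, on log scales with 1 the strongest and colours giving the side of the TSS; the line marks equal ranks. More points lie below the line, where replicate 3 ranks a summit higher (422), than above it (186).

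A summit was also present within 500 bp of the nearest TSS for 187 members (24.6%, 21.7% to 27.8%). The share was 18.6% over all 23581 annotated TSSs and 17.7% over the TSSs nearest to eligible intron. It was 30.8% for members downstream of a start of the host, 18.5% upstream of an alternative start and 12.5% beside another gene. The share did not differ past the threshold from introns up to 5000 bp away (23.3%, adjusted p = 0.627) or farther away (20.3%, adjusted p = 0.172, two-sided Fisher's exact tests over 2 comparisons). Members with such a summit had a median signal of 285, and those without one 232.

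The members were spread over 604 host genes, of which 490 held 1, 86 held 2 and 28 held at least 3. CG1677 held the most, with 6 in a second intron, all nearest to a start of other genes. These were unc-119 for 2 summits, brk for the 2 that share an interval, and CG42780 and CBP for 1 each. brk encodes a repressor of BMP target genes. The 6 signals ran from 257 to 588, and only the CBP summit had a counterpart in both replicates.

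CHES-1-like held 5 summits, with signals of 2134, 1147, 670, 389 and 326. They were nearest to its own starts in 3 cases and to lncRNA:CR43287 in 2. shn, which encodes a zinc finger protein that acts with Mad in BMP signalling, also held 5, of signal 1184, 288, 272, 254 and 224. In both genes the strongest summit was found in both replicates, while 1 or more of the others lacked a counterpart in replicate 1. Tlk, which encodes the tousled-like chromatin kinase, held 4 (1065, 655, 433 and 291), and Tpr2, a co-chaperone gene, held 4 (806, 571, 464 and 132). CG42258 (305, 301, 943 and 561), fru and Acsl each held 4 as well. fru encodes a BTB zinc finger factor of sexual behaviour and Acsl a long-chain acyl-CoA synthetase, and their strongest summits had signals of 267 and 224. HmgZ held 3, of which 1 was nearest to the start of the neighbouring HMG-box gene HmgD.

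Among 9005 protein-coding genes with eligible intron, 628 (6.97%) held a member, and this share rose with the amount of eligible intron. In 4 nearly equal groups of genes by eligible length it was 0% in the lowest, 0.447% and 5.30% in the next and 22.2% in the highest, with at least 1468 bp. Gene lists are therefore given with their median eligible length and with no test. The median over the 9005 genes was 387 bp. Transcriptional corepressors and BTB zinc finger genes had 11 of 23 genes with a member (47.8%, 29.2% to 67.0%) at a median of 4016 bp. They included ush, Trl, Sin3A, which encodes a histone deacetylase scaffold (signal 856), and br, an ecdysone-response BTB gene (494). The br summit also lay inside Mur2B, upstream of a start of that gene, and Mur2B was counted as its host.

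Signalling genes followed. The EGFR, FGFR and Ras MAPK list had 8 of 24 genes with a member at a median of 2205.5 bp eligible. They included drk, the adaptor between receptor and Ras activation (892), ths, an FGF ligand (716), pnt, an ETS effector (559), and S, which encodes Star, needed for export of EGFR ligands (466). Of these summits, those in drk and pnt were nearest to a start of another gene, mars and lncRNA:CR46090. The TGF-beta and BMP list had 3 of 17, namely shn, Mad, the BMP effector (701), and wit, a BMP receptor gene (652, nearest to a start of CG32259), with 8 members in all. Wnt and Hedgehog genes had 5 of 28, among them sgg, the kinase of the beta-catenin destruction complex (368), and ptc, the Hedgehog receptor gene (270, nearest to a start of lncRNA:CR44281).

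Of the other pathway lists, Notch had 1 of 18 genes (neur, a ubiquitin ligase for Delta, 405). Insulin and TOR had 1 of 18 (InR, 531), and Hippo 3 of 18 (crb, mats and dco). The median eligible lengths of these lists were 1029, 828.5 and 1135.5 bp. JAK-STAT and Toll genes had 4 of 19 at a median of 881 bp, led by the transcription factor gene Stat92E (666). Nuclear receptor and ecdysone genes had 5 of 22 at a median of 3760.5 bp, led by the receptor gene EcR (834). The EcR summit was nearest to the start of a tRNA gene and had a counterpart in replicate 1 but none in replicate 3, and neur had one in replicate 3 only.

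Lists of structure and cell type ranged widely. Cell adhesion and septate junctions had 6 of 27 at a median of 1704 bp, led by rhea, the talin gene (752). Glia had 4 of 11 at a median of 1624 bp, including Gs2, a glutamine synthetase gene (601), and pnt. RNA-binding and splicing factors had 8 of 28, led by mub (934), brat (771), ps (668) and the neuronal gene elav (642). Their median, 7577 bp, was the longest of these lists. Per Mb of eligible intron, members numbered 258 in the glia list and 47.7 in the RNA-binding list, beside 66.9 over all coding genes. The glia value rests on 8 members in 0.031 Mb. Other lists with a member ranged from 21.7 per Mb (Notch) to 216 per Mb (insulator and architectural proteins). Neuronal differentiation and synapse had 7 of 28, neural progenitor 4 of 15, and heat shock and stress 5 of 16, led by the chaperone gene Hsp83 (536). The medians of these lists were 3666.5, 6000 and 813.5 bp.

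Among the remaining lists, trachea and epidermis had 4 of 19, Polycomb and Trithorax 4 of 28 and muscle 3 of 25. Their medians were 3668, 489.5 and 1640 bp. The cell cycle had 2 of 22 and the circadian clock 2 of 13, at medians of 325 and 1625 bp. Insulator and architectural proteins had 1 of 13, and Hox genes and cofactors 1 of 10 (Abd-B, 342), at medians of 230 and 2029 bp. No gene held a member among 21 segmentation and patterning genes (Wilson interval up to 15.5%), 16 gut, fat body and hemocyte genes (up to 19.4%) and 10 cytoplasmic ribosomal protein genes with eligible intron (up to 27.8%). Those ribosomal protein genes had a median of 128.5 bp eligible, the segmentation genes 769 bp, and the gut, fat body and hemocyte genes 1296.5 bp.

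The summits were AT-rich. GC content in the summit base and the 100 bp on either side averaged 34.5% ± 6.61 (SD over 759 windows), and in flanks of the same length 600 bp away, on a side drawn at random, 41.7% ± 8.29. It was lower at the summit for 565 members (74.4%). Of the flanks, 240 reached into an exon. With flanks free of exon bases, which 681 members had, the mean difference, summit minus flank, was -5.18 percentage points, beside -7.23 with all flanks. Summits of the other classes had similar means, from 34.5% to 35.5%.

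Against these flanks, 5 of 32 motifs (15.6%) were more frequent at the summit and 5 (15.6%) less frequent (two-sided exact sign test on each pair of windows, Benjamini-Hochberg adjusted over all motifs). The TATA box TATAAA was in 39.4% of summit windows and 20.3% of flanks (adjusted p = 4.49e-15, exact sign test). Also more frequent, with adjusted p from 6.79e-05 to 0.0192 in the exact sign test, were the Sox core ACAAT (52.2% and 40.3%), the GATA core GATAA (44.3% and 36.9%), the Initiator core TCAGT (37.0% and 30.0%) and the homeodomain core TAATTA (18.6% and 11.7%). Less frequent, with adjusted p from 1.07e-05 to 0.0484 in the exact sign test, were GAGAG, bound by GAGA factor (21.5% and 28.1%), the Pho core GCCAT (24.0% and 30.4%), the Mad core GCCGNCG (3.16% and 8.30%), the ETS core CCGGAA (2.90% and 5.53%) and the CA repeat CACACACA (2.64% and 8.70%). With replicate 1 left out, GAGAG and CCGGAA missed the threshold. With replicate 3 left out, TCAGT (5.08 points, adjusted p = 0.191, exact sign test), the GAGA repeat, the Pho core and the ETS core did. In the whole list TATAAA was in 38.5% of summit windows, ACAAT in 51.8%, GATAA in 42.0%, TCAGT in 34.4%, TAATTA in 19.0%, GAGAG in 19.6%, GCCAT in 25.2%, GCCGNCG in 3.18%, CCGGAA in 3.71% and CACACACA in 2.60%.

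The motif differences moved with base composition. When each member was paired with the flank nearer in GC, keeping the 361 pairs within 5 percentage points (36.3% and 36.8% on average), 0 of 32 motifs (0.0%) passed the exact sign test and 3 had an unadjusted p under 0.05. TATAAA was then in 37.1% of summits and 29.1% of flanks (adjusted p = 0.220, exact sign test). This pairing was chosen after the data were seen, and the smaller number of pairs also widens the error. With flanks free of exon bases, likewise chosen afterwards, 2 motifs were more frequent and 3 less frequent at the summit, and TATAAA was in 38.9% of summits and 23.6% of flanks. The Sox, GATA and homeodomain cores then missed the threshold (adjusted p from 0.103 to 0.127, exact sign test). So did the GAGA repeat and the Mad and ETS cores (adjusted p from 0.103 to 0.655, exact sign test).

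The members differed from summits at transcription starts in promoter motifs, at nearly the same GC content. These classes were chosen by distance to a TSS, so position and binding cannot be told apart in this comparison. Against the 2626 TSS summits, 8 of 32 motifs (25.0%) passed the threshold (two-sided Fisher's exact test, adjusted over 64 tests). The DNA replication-related element (DRE) TATCGATA, bound by Dref at housekeeping promoters, was in 1 member (0.132%) and 7.81% of TSS windows (adjusted p = 1.29e-20, Fisher's exact test). Its core ATCGAT was in 5.14% and 18.0%, and the overlapping CGATA, the core bound by BEAF-32, in 19.9% and 40.5%. Motif 1, bound by M1BP, was likewise less frequent, with its core GTCACAC in 1.45% and 4.95% and the longer GGTCACACT in 0 members (up to 0.504%) and 2.86%. The Motif 7 core CANCNCTA was in 6.06% and 16.1%, and CAGCTG, an E-box of bHLH factors, in 6.46% and 10.2%. Adjusted p for these 6 ran from 3.73e-25 to 0.0131 in Fisher's exact test. Against the members' own flanks, neither TATCGATA nor any of these 6 passed the threshold (adjusted p from 0.286 to 0.743, exact sign test). The flanks held TATCGATA in 0.527%, ATCGAT in 6.19% and CGATA in 23.1%. Of the 8, only TCAGT was more frequent in members, at 37.0% and 31.0% (adjusted p = 0.0162, Fisher's exact test). This call was lost without replicate 3 (3.19 points, adjusted p = 0.448), among peaks above the list's median signal, with narrower windows and with 1 member per host gene (adjusted p from 0.0866 to 0.212 in Fisher's exact test). The Motif 1 core and CAGCTG also missed the threshold among the peaks above the median, and CAGCTG with narrower windows. Over the whole list the shares were 4.29% for TATCGATA, 11.6% for ATCGAT, 31.2% for CGATA, 3.26% for GTCACAC, 1.57% for GGTCACACT, 11.1% for CANCNCTA and 8.12% for CAGCTG.

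Beside introns farther away, no motif difference passed the test. Against the 948 intronic summits over 2000 bp from a TSS, 0 of 32 motifs (0.0%) passed Fisher's exact test after adjustment. At an unadjusted p under 0.05 there were 2, ATCGAT with 5.14% and 3.16% and CCGGAA with 2.90% and 1.37%. TATAAA was in 39.4% and 38.4%.

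**Figure D4:**
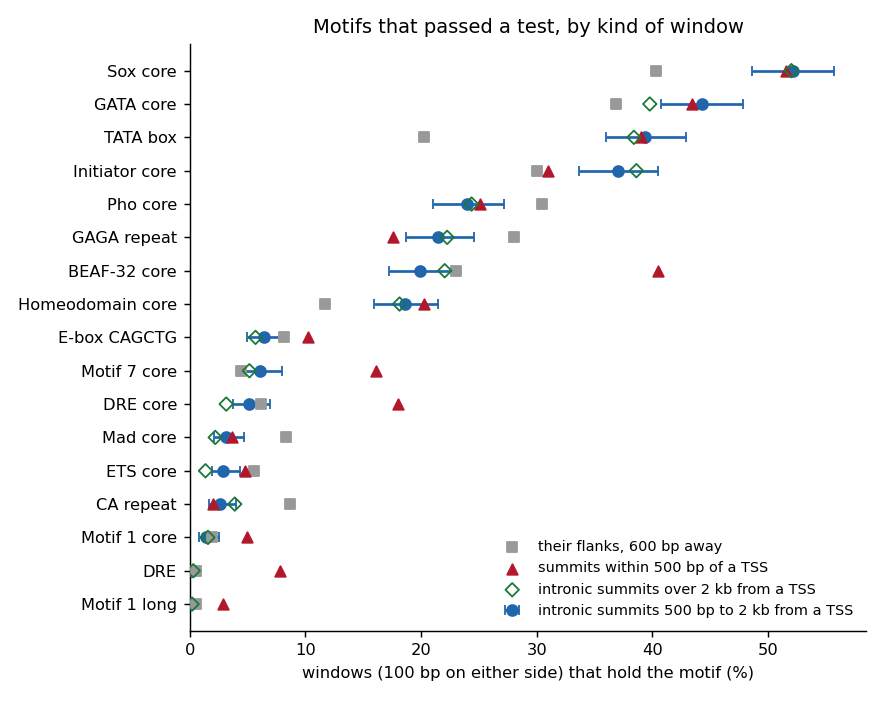
Share of windows, the summit with 100 bp on either side, that hold each motif (x axis, percent) for the motifs that passed a test against flanks or TSS summits; circles with 95% Wilson intervals are the 759 members, squares their flanks, triangles TSS summits and diamonds intronic summits over 2000 bp from a TSS. The DRE, BEAF-32, Motif 1 and Motif 7 triangles lie to the right of the circles, while the diamonds lie close to them.

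Of 8192 words of 7 bases, 227 (2.77%) were more frequent at the summit and 162 (1.98%) in the flank (exact sign test, adjusted over all words, with a word and its reverse complement counted as 1). Their mean GC content was 16.5% and 67.4%. With flanks free of exon bases the counts were 80 and 22. Among the words in at least 2% of summit windows, those with the largest ratios were ACTCTAC (19 summit windows and 3 flanks), CAGTACA (27 and 5), GGTTATA (20 and 4), AGTACAG (29 and 6) and AAGATTC (24 and 5). AGCATAT (42 and 9), ATCAGTA (23 and 5), CTTATAA (36 and 8), CACTATA (22 and 5) and TCTTTCA (44 and 10) followed. Among the words less frequent at the summit were CACACAC (97 flanks and 27 summits) and GCAGCAA (66 and 19).

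With flanks of similar GC, 7 words (0.0854%) passed the exact sign test, and all were more frequent at the summit. Their adjusted p ran from 0.00014 to 0.0184 in the exact sign test. They were CACAGTG (43 of 361 summits and 7 flanks), AGTGCAC (32 and 4), GCACAGT (34 and 6), CAGTGCA (37 and 7), GTACAGT (32 and 5), TACAGTG (43 and 12) and ACAGTGG (52 and 17). They overlap one another and make up the group whose sites are printed above. Since the words were chosen on these pairs, their joint share there is a description. At least 1 was in 37.1% of the 361 summit windows. Among the 398 members with no such flank, which did not enter that choice, 25.4% of summit windows (21.4% to 29.9%) and 13.3% of flanks (10.3% to 17.0%) held one.

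Over all 759 members, 31.0% of summit windows (27.8% to 34.3%) and 14.4% of flanks held a word of the group. The share was 35.8% in the strongest of 4 equal groups by signal and 26.8% in the weakest, with overlapping intervals (29.3% to 42.8% and 21.0% to 33.6%). It was 29.2% downstream of a start of the host, 30.0% upstream of an alternative start and 39.2% beside another gene. When intronic summits of the same range were taken from a single replicate, as many peaks deep as the IDR list, it was 29.4% in replicate 1 and 29.9% in replicate 3. Those lists hold counterparts of 64.3% and 83.7% of the members, so these shares are not independent of the choice of words. In the other classes it was 29.0% in introns up to 5000 bp away (flanks 14.9%), 32.8% in introns farther away (flanks 11.7%) and 19.3% at TSS summits (flanks 12.3%).

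The words lay beside the summit rather than on it. Per 100 members there were 10.5 matches within 50 bp of the summit, 29.8 between 50 and 100 bp, 18.7 between 100 and 150 bp, and 6.06 between 250 and 300 bp, matches under 7 bp apart being counted once. The words were chosen for their excess within 100 bp of 361 of these summits, so the fall beyond 100 bp depends in part on that choice. In classes of 10 bp, matches numbered 61 between 90 and 100 bp and 30 between 100 and 110 bp. TATAAA was most frequent at the centre instead, with 35.2 matches per 100 members within 50 bp, 21.6 between 50 and 100 bp and 11.5 between 250 and 300 bp. In introns over 5000 bp from a TSS the group also peaked between 50 and 100 bp, at 30.8 per 100 summits after 8.45 nearer the summit. At TSS summits it rose less, from 8.34 to 13.9. Of the 8 printed sites, 7 lay 58 to 97 bp from the summit and the Lk6 site 14 bp from it.

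**Figure D5:**
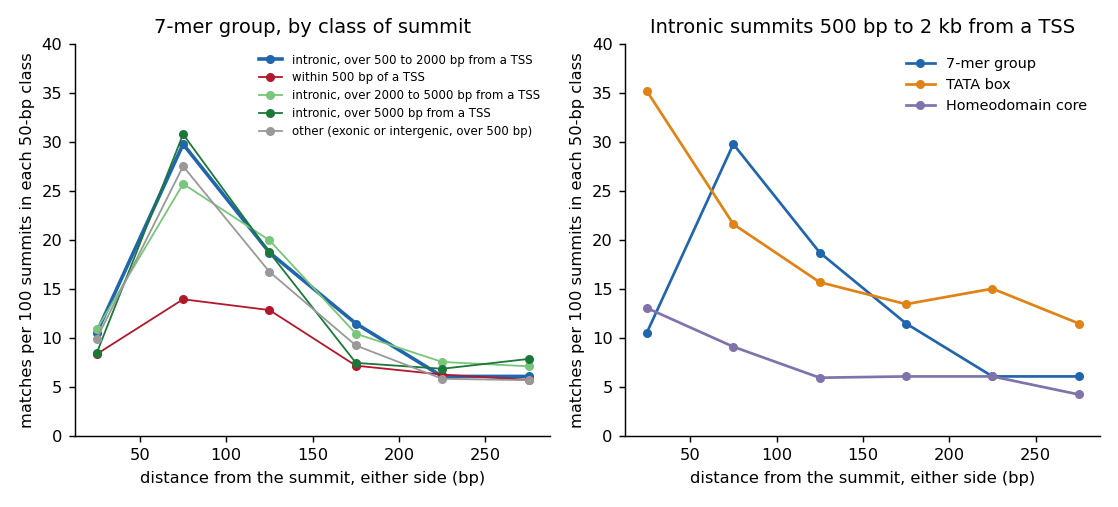
Matches per 100 summits (y axes) against distance from the summit on either side in classes of 50 bp (x axes); the left panel gives the 7-mer group by class of summit, the right panel the group, the TATA box and the homeodomain core at the members. The group peaks between 50 and 100 bp (29.8 per 100 members), the TATA box within 50 bp (35.2). The words of the group were chosen on windows reaching 100 bp from the members' summits.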

How the data were processed

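The deposited files are peak lists in dm6 coordinates from 2 replicates of 1 group, 1 list pooled over both and 1 thresholded by IDR. Per the labels, chromatin was sonicated to 200 to 800 bp. The signal deposited by the authors for each peak was used only to rank and describe peaks within a list. The values deposited beside it, either −log10 q or IDR values, were not used. No source used here names the peak caller. Control libraries were not analysed here, and the depth is unknown.

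Genes (18164, all biotypes but transposable elements) and 23581 TSSs came from Ensembl release 115 (BDGP 6.54), and sequence from the release 6 assembly. Coordinates are 1-based. The host was a gene holding the summit, protein-coding if any was, then that of the nearest TSS, then the shortest; gene lists counted every gene holding a summit. Tests were two-sided, with Benjamini-Hochberg adjustment within each family at a threshold of 0.05, computed with scipy 1.17.1, pandas 2.3.3 and numpy 2.4.6 under Python 3.11.15. Figures were drawn with matplotlib 3.10.9. Intervals cover counting error over peaks only. 

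Motifs searched on both strands, N being any base, were GAGA repeat GAGAG, DRE TATCGATA, DRE core ATCGAT, BEAF-32 core CGATA, Motif 1 core GTCACAC, Motif 1 long GGTCACACT, Motif 6 core GTATNTTT, Motif 7 core CANCNCTA, TATA box TATAAA, Initiator core TCAGT, E-box CANNTG, E-box CACGTG, E-box CAGCTG, Zelda site CAGGTAG, Grainyhead core AACNGGTT, GATA core GATAA, Homeodomain core TAATTA, AP-1 TGANTCA, STAT TTCNNNGAA, Su(Hw) core TGCATA, Pho core GCCAT, Runt core AACCACA, ETS core CCGGAA, CRE TGACGTCA, TCF core ATCAAAG, Nuclear receptor site AGGTCA, HSE core GAANNTTC, Mad core GCCGNCG, Mef2 core, Sox core ACAAT, CA repeat CACACACA, A tract AAAAAAAA. DRE holds DRE core and BEAF-32 core, Motif 1 long holds Motif 1 core, and the general E-box holds both specific ones. The sequence tests were tried on simulated windows of equal GC content, which does not cover the GC difference between summits and flanks.

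The members and the 26 gene lists (580 of 591 names matched) were chosen with earlier results of these data known. Named genes were the hosts of the 15 strongest members, the 10 hosts with the most members, up to 4 per gene list by signal, and those nearest each limit; of the list genes a part is named, and 1 list and 1 host are not reported here. No sequence or window from arm 2R is printed. Alternatives were a stricter list of the peaks with signal above the list's median, coding genes only, other distances, windows, flanks and overlaps, 1 member per host, and leaving out each replicate. Flanks of similar GC or without exon bases, and the 7-mer group, were added after the data were seen.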

Additional observations from a re-analysis of the deposited data

How the results depend on the processing

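No paired analysis was possible because the samples form 1 group. With only protein-coding genes annotated there were 731 members, and between 250 and 2000 bp there were 994. The peaks above the list's median signal (the stricter list) held 360 members, and limits of 1000 to 2000 bp left 391, both by construction fewer. Leaving out 1 replicate, and taking as many peaks from the other as the IDR list has, gave 650 to 798 members, or 12.9% to 15.8% of the list, the lower without replicate 3. The share with a counterpart in both replicates was 73.6% in the stricter list, 98.4% at an overlap of 1 bp, 96.0% for summits within 100 bp, and 53.2% when each replicate's list was shortened to the length of the IDR list. In the last, members were below TSS summits, reversing the sign (-10.1 points, adjusted p = 1.77e-06 by Fisher's exact test), and above introns over 5000 bp away by 7.35 points (adjusted p = 0.0168, Fisher's exact test). Other sign changes, none past the threshold in either setting, were -1.42 points against TSS summits in the stricter list, -0.69 and -0.37 against the other introns at 1 bp overlap, and, for a promoter summit within 250 bp, -0.99 and -0.88 points. The share with a promoter summit at the nearest TSS was 16.9% in the stricter list, 15.4% within 250 bp, 27.9% within 1000 bp with members not counted, and 23.8% to 28.2% with a replicate left out. In the stricter list first introns held 84.4% and summits beside another gene made up 13.3%; with a replicate left out, first introns held 82.3% to 82.5%, downstream summits 58.9% to 59.7%, upstream summits 25.2% to 25.9% and those beside another gene 15.1% to 15.2%.

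Motifs higher and lower at the summit than in the flank numbered 5 and 5; they numbered 4 and 3 with 50 bp on either side of the summit, 4 and 3 with flanks at 1000 bp, 3 and 2 with 1 member per host, 4 and 3 in the stricter list, 2 and 3 with flanks free of exon bases, and 0 and 0 with flanks of similar GC. With a replicate left out, 5 were higher in both cases and 2 to 3 lower. Without replicate 3, 4 of the 5 named as higher passed, the Initiator core being lost, and the Pho core (-3.38 points, adjusted p = 0.366, exact sign test) was lost among the lower ones. The homeodomain core missed the threshold with flanks at 1000 bp, with 1 member per host and in the stricter list (adjusted p from 0.151 to 0.285, exact sign test). With flanks free of exon bases, the homeodomain, Sox and GATA cores missed the threshold (adjusted p from 0.103 to 0.127, exact sign test). The Initiator core missed it with narrower windows, with 1 member per host and in the stricter list (adjusted p from 0.0999 to 0.499, exact sign test). The Mad core reversed with similar GC (1.66 points, adjusted p = 0.935, exact sign test). 7-mers higher and lower numbered 113 and 64 with flanks at 1000 bp, 143 and 62 with 1 member per host, 51 and 10 in the stricter list, 80 and 22 with flanks free of exon bases, 7 and 0 with similar GC, and 130 to 233 and 59 to 172 with a replicate left out, the lower values without replicate 3. Against TSS summits, 5 motifs remained in number in the stricter list, where DRE, DRE core, BEAF-32 core, the longer Motif 1 and Motif 7 passed; these 5 passed in each alternative run for them. The 7-mer group stayed between 29.4% and 33.9% of members. Genes of the lists with a member numbered 89, and 69 by the gene of the nearest TSS and 52 in the stricter list. Except where the setting itself takes fewer peaks or pairs, the cause of a change was not tested. Unknown depth limits all statements on peaks that are missing from a replicate.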
